A study of Mus musculus with 8 samples.

Results

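The genes considered here encode the subunits of the NMDA and AMPA receptors, the main fast glutamate receptors of the brain. They were Grin1, Grin2a, Grin2b, Grin2c, Grin2d and Grin3a for the NMDA receptor and Gria1, Gria2, Gria3 and Gria4 for the AMPA receptor, chosen by name. The choice was made with earlier results of these data known. A gene was represented by the probe set annotated with its symbol alone, and by the one with the highest mean over the 8 arrays where there were several. Of the 10 genes, 9 had such a probe set, each exactly 1, among 23410 probe sets with a gene symbol, and 19938 genes in all had a probe set to themselves. Grin1 was not matched to a probe set in the annotation used and was not analysed here.

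Affymetrix Mouse Gene 1.0 ST arrays measured expression in the whole brain of male C57BL/6J mice that had reached postnatal day 70. Their mothers had been injected with ethanol, at 2.5 g/kg per injection and 2 injections per treatment day, or with saline at the same times. Treatment fell on gestational days 8 and 11 (early exposure) or on gestational days 14 and 16 (late exposure). Each of the 4 groups (early ethanol, early saline, late ethanol and late saline) had 2 arrays, and each array carried RNA pooled from 3 males of different litters, so that no value belongs to a single mouse and every SD is over n = 2 pools. All mice were of the same wild-type strain, and no allele or later treatment distinguished the groups. As RNA came from the whole brain, fewer cells expressing a gene and less RNA per cell cannot be told apart.

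Both receptors are channels built from 4 subunits that open when glutamate binds. AMPA receptors carry most of the fast excitatory current, and a receptor containing the edited GluA2 subunit (from Gria2) passes little calcium. NMDA receptors need a co-agonist and relief from magnesium block, pass calcium and set off synaptic plasticity. They contain the obligatory GluN1 subunit (from Grin1) together with GluN2 or GluN3 subunits, whose mixture shifts from Grin2b towards Grin2a as the forebrain matures. Ethanol is known to inhibit NMDA receptors while it is present, and the arrays address another question, namely whether transcript levels of the subunits differed in the adult brain long after exposure in the womb.

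Expression is given as the deposited log2 value, on which a difference of 1 is a doubling. The median of all probe sets ranged from 6.74 to 6.84 at the early timing and from 7.21 to 7.30 at the late timing, and levels were therefore compared only within a timing. Background was taken as the 95th percentile of 1210 probe sets for olfactory and vomeronasal receptors, which are mostly silent in brain. It lay at 6.41 to 6.55 (early) and at 7.28 to 7.70 (late). Late ethanol replicate 1 had the highest background and the highest median of the late arrays. Of 12 neuron markers, 12 lay above background at both timings, as did 8 of 8 astrocyte and 7 of 7 measured oligodendrocyte markers.

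Of the 9 measured genes, 8 lay above background in all 8 arrays. The exception was Grin2d, whose GluN2D subunit belongs mainly to the diencephalon, brainstem and interneurons of the adult, and which was at or below background in all 8. The values of the 9 genes were close between pools. Their SD within groups ran from 0.04 for Gria3 to 0.09 for Gria2, all below the median of 0.10 over all probe sets.

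**Figure D1:**
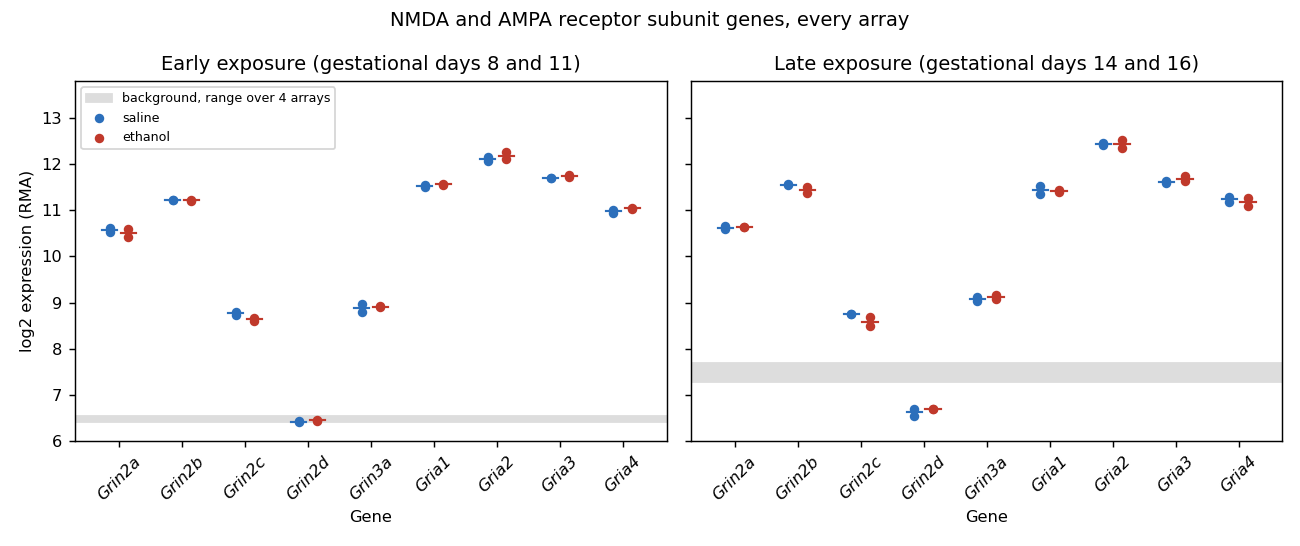
Log2 expression (vertical axis, RMA) of the 9 measured subunit genes (horizontal axis) in the early (left) and late (right) arrays, in which points are arrays (blue for saline, red for ethanol), bars are means of 2 arrays and background is drawn as a grey band spanning the 4 arrays of a timing. Ethanol and saline points lie close together for each gene, and Grin2d lies at the band in the early arrays and below it in the late arrays. Heights of separate probe sets are not to be compared.

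None of the 9 subunit genes passed the test after early exposure. The AMPA receptor genes gave positive differences in 4 of 4 cases, between 0.03 and 0.06 on the log2 scale. Of all 23410 probe sets, 9417 were positive. The differences of Gria1, Gria2 and Gria3 turned negative with quantile normalization or cyclic loess over all 8 arrays. The NMDA receptor genes were mixed, with 2 of 5 positive and 3 negative. In limma, the smallest unadjusted p among the 9 genes was 0.209, for Grin2c, and the smallest adjusted p was 1.

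Gria1 encodes GluA1, a subunit that is added to synapses during potentiation. It was at 11.54 and 11.58 in the early ethanol arrays and at 11.56 and 11.50 in the early saline arrays, a difference of 0.03 (95% interval -0.16 to 0.22) with overlapping groups. Gria2, the subunit that limits calcium entry, was at 12.10 and 12.25 in ethanol and at 12.16 and 12.07 in saline, a difference of 0.06 (-0.15 to 0.28). The groups overlapped here as well, and the ethanol arrays were further apart than the group means.

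Gria3, which mostly partners GluA2, was at 11.72 and 11.75 in early ethanol and at 11.70 and 11.70 in saline, a difference of 0.04 (-0.14 to 0.21). Gria4, a subunit with rapid kinetics found in interneurons, cerebellum and thalamus, was at 11.02 and 11.06 in ethanol and at 10.94 and 11.02 in saline, a difference of 0.06 (-0.15 to 0.26). Both ethanol arrays lay above both saline arrays for Gria3, Gria4 and Grin2d, which is 3 of 9 genes against 7.5% of all probe sets. This order depended on the scaling, as it held for Gria4 alone with each array centred on its median, for none of the 9 genes with quantile normalization and for Grin2d alone with cyclic loess.

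Among the NMDA receptor genes, Grin2a, the GluN2 subunit of the mature forebrain, was at 10.42 and 10.60 in early ethanol and at 10.61 and 10.54 in saline, a difference of -0.06 (-0.26 to 0.14) that was 0.025 without ethanol replicate 1. Grin2b, its counterpart in the immature brain, was at 11.20 and 11.23 in ethanol and at 11.23 and 11.22 in saline, a difference of -0.01 (-0.19 to 0.17). Both genes overlapped between groups.

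Grin2c, whose GluN2C subunit is best known from mature cerebellar granule cells, was at 8.67 and 8.61 in early ethanol and at 8.73 and 8.80 in saline. The difference of -0.12 (SE 0.09, -0.33 to 0.08) was the largest of the 9 genes, and both ethanol arrays were below both saline arrays, an order shared by 18.9% of all probe sets. Grin2d was at 6.46 and 6.45 in ethanol and at 6.40 and 6.44 in saline, all at background. Grin3a, which lowers the calcium permeability of the receptor, was at 8.90 and 8.93 in ethanol and at 8.97 and 8.80 in saline, with overlapping groups and a difference of 0.03 (-0.18 to 0.23).

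After late exposure the 9 genes again gave no call. The negative differences of largest size were those of Grin2c and Grin2b, and the positive difference of largest size was that of Gria3. In limma, the smallest unadjusted p was 0.103, for Grin2c, and the smallest adjusted p was 1.

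Grin2c was at 8.49 and 8.69 in late ethanol and at 8.76 and 8.76 in late saline, a difference of -0.17 (SE 0.09, -0.37 to 0.04). Both ethanol arrays were below both saline arrays, although replicate 1 of ethanol was far lower than replicate 2. The difference was -0.07 without late ethanol replicate 1. Without late ethanol replicate 2 it was -0.27.

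Grin2b was at 11.38 and 11.50 in late ethanol and at 11.57 and 11.54 in saline, a difference of -0.12 (SE 0.08, -0.30 to 0.06). It was -0.060 without late ethanol replicate 1 and -0.18 without late ethanol replicate 2, and -0.053 with quantile normalization and -0.062 with cyclic loess. With Grin2c this made 2 of 9 genes whose ethanol arrays were both below saline, against 15.7% of all probe sets, and Grin2b overlapped between groups with quantile normalization or cyclic loess. Grin2a was at 10.64 and 10.63 in ethanol and at 10.65 and 10.59 in saline, a difference of 0.01 (-0.18 to 0.21) whose sign turned with median centring. Grin3a was at 9.08 and 9.16 in ethanol against 9.12 and 9.04 in saline, a difference of 0.04, and Grin2d, below background, at 6.69 and 6.69 against 6.71 and 6.55.

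Gria3 was at 11.73 and 11.64 in late ethanol and at 11.63 and 11.58 in saline, a difference of 0.08 (-0.10 to 0.26). It alone among the 9 genes had both late ethanol arrays above both saline arrays in the deposited values, an order found in 12.7% of all probe sets. With quantile normalization Grin2a, Grin3a and Gria3 had it (3 of 9, against 13.7%), and with cyclic loess Gria2 as well (4 of 9, against 14.2%). The gap between the closest ethanol and saline arrays was small beside the distance of the ethanol arrays.

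Gria1 was at 11.43 and 11.41 in late ethanol and at 11.52 and 11.35 in saline, a difference of -0.02 (-0.21 to 0.17). Gria2 was at 12.52 and 12.35 in ethanol and at 12.45 and 12.41 in saline, a difference of 0.01 (-0.21 to 0.22). Gria4 was at 11.10 and 11.28 in ethanol and at 11.29 and 11.19 in saline, a difference of -0.05 (-0.26 to 0.15). All 3 overlapped between groups, and their signs were not stable, since those of Gria1 and Gria4 turned with quantile normalization or cyclic loess and that of Gria2 with median centring.

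**Figure D2:**
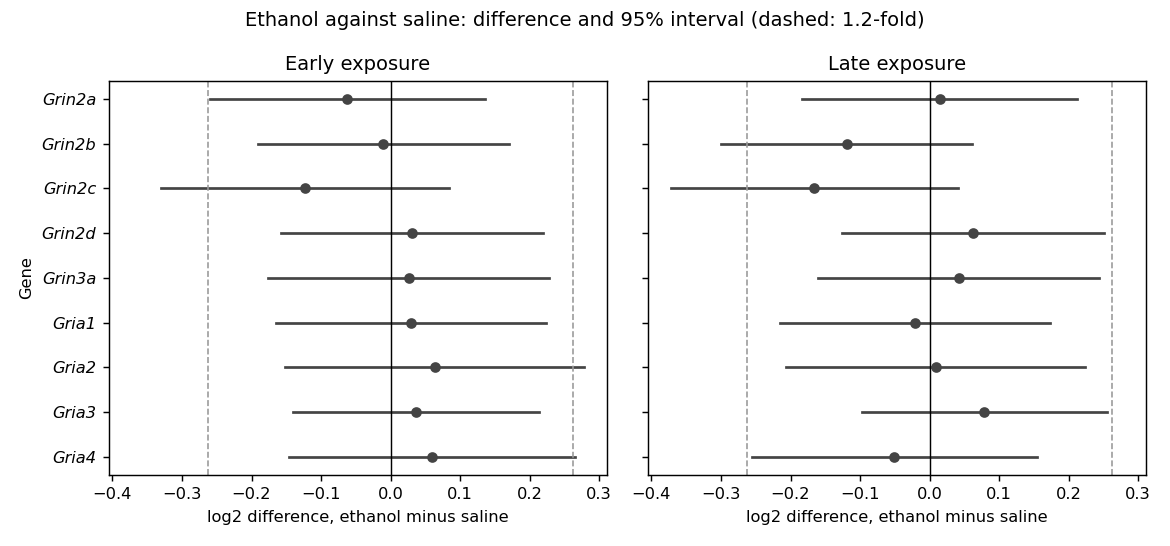
Log2 difference of ethanol minus saline (horizontal axis) for the 9 measured subunit genes (vertical axis) after early (left) and late (right) exposure, with the limma estimate as a point, its 95% interval as a line and 1.2-fold in either direction as dashed lines. Every interval includes 0, and the intervals that reach furthest belong to Grin2c, down to -0.33 (early) and -0.37 (late).

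The intervals bound the differences that these arrays leave possible. For early exposure the 95% intervals of 6 of 9 genes lay within 1.2-fold in either direction, against 33.4% of all probe sets, and those of Grin2c, Gria2 and Gria4 crossed it. For late exposure 7 of 9 did so, against 29.8% of all probe sets, and those of Grin2b and Grin2c crossed it. Both counts include Grin2d, whose interval bounds no change in its transcript because it lay at background, and without it they were 5 of 8 early and 6 of 8 late. The shares of all probe sets include those at background, and shares among probe sets above background alone were not counted. The largest change inside any interval was 1.29-fold, for Grin2c after late exposure. These intervals apply to 1 gene at a time, and changes smaller than them were not detectable with 2 arrays per group.

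Across the array, the median size of the difference, regardless of sign, was 0.04 for the 9 genes and 0.06 for all probe sets after early exposure, and 0.05 against 0.07 after late exposure. The median signed difference was 0.03 (early) and 0.01 (late), beside -0.02 and -0.01 for all probe sets. Limma called 0 of 23410 probe sets (0%) at an adjusted p under 0.05 for either timing. At an unadjusted p under 0.05 it found 401 (1.71%) early and 583 (2.49%) late, of which 0 were subunit genes with all 8 arrays. The analysis of variance on the 4 arrays of a timing, which the study's methods name, found 797 and 740, with 0 after adjustment and again 0 subunit genes.

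Whether the effect of ethanol differed between the timings was tested as the early difference minus the late difference. For the 9 genes this ran from -0.08 for Grin2a (95% interval -0.36 to 0.20) to 0.11 for Gria4 (-0.18 to 0.40) and for Grin2b (-0.15 to 0.36), with unadjusted p of 0.353 or more and adjusted p of 1 or just under. Limma called 0 of all probe sets (0%) in this comparison, with 483 (2.06%) at an unadjusted p under 0.05. Grin2c gave -0.12 early and -0.17 late, a difference between timings of 0.04 (-0.25 to 0.34). It alone among the 9 genes had both ethanol arrays below both saline arrays at both timings, which 2% of all probe sets also showed. Grin2c kept that order under median centring, quantile normalization and cyclic loess. Under these scalings, in turn, 17.5%, 18.5% and 16.2% of all probe sets had it early, and 17.2%, 13.9% and 15.2% late. The share with it at both timings was not counted under them. Gria3 had the opposite order at both timings in the deposited values, and lost it early under each of these scalings. The share of all probe sets with the opposite order at both timings was not counted.

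Receptor properties follow the mixture of subunits, so 3 ratios were formed within each array. Their level has no meaning, because probe sets differ in brightness, and only the difference of ethanol minus saline is read. With 2 arrays against 2, an exact two-sided permutation test cannot give a p below 0.333. The log2 ratio of Grin2a to Grin2b was -0.77 and -0.64 in early ethanol and -0.62 and -0.68 in early saline, a difference of -0.05 (exact permutation p = 0.667). In the late arrays it was -0.73 and -0.87 in ethanol and -0.92 and -0.95 in saline, a difference of 0.13 (exact permutation p = 0.333). Both late ethanol arrays were above both late saline arrays, with Grin2b accounting for -0.12 and Grin2a for 0.01. The difference was 0.067 without late ethanol replicate 1 and 0.20 without late ethanol replicate 2.

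The ratio of Gria2 to the mean of Gria1, Gria3 and Gria4 was 0.67 and 0.79 in early ethanol and 0.75 and 0.66 in early saline, a difference of 0.02 (exact permutation p = 0.667). In the late arrays it was 1.10 and 0.91 in ethanol and 0.97 and 1.03 in saline, a difference of 0.01 (exact permutation p = 1). The ethanol arrays lay on either side of the saline arrays at the late timing. Neither sign held with quantile normalization.

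The mean of the 5 measured NMDA receptor genes minus that of the 4 AMPA receptor genes was -2.47 and -2.50 in early ethanol and -2.40 and -2.41 in early saline, a difference of -0.07 (exact permutation p = 0.333). Both ethanol arrays were the lower ones in the deposited values, but the groups overlapped with quantile normalization (-0.018) and with cyclic loess (-0.012), where the exact permutation p was 1. Without Grin2d, which lay at background, the difference was -0.09. In the late arrays it was -2.44 and -2.33 in ethanol and -2.36 and -2.34 in saline, a difference of -0.04 with overlapping groups.

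**Figure D3:**
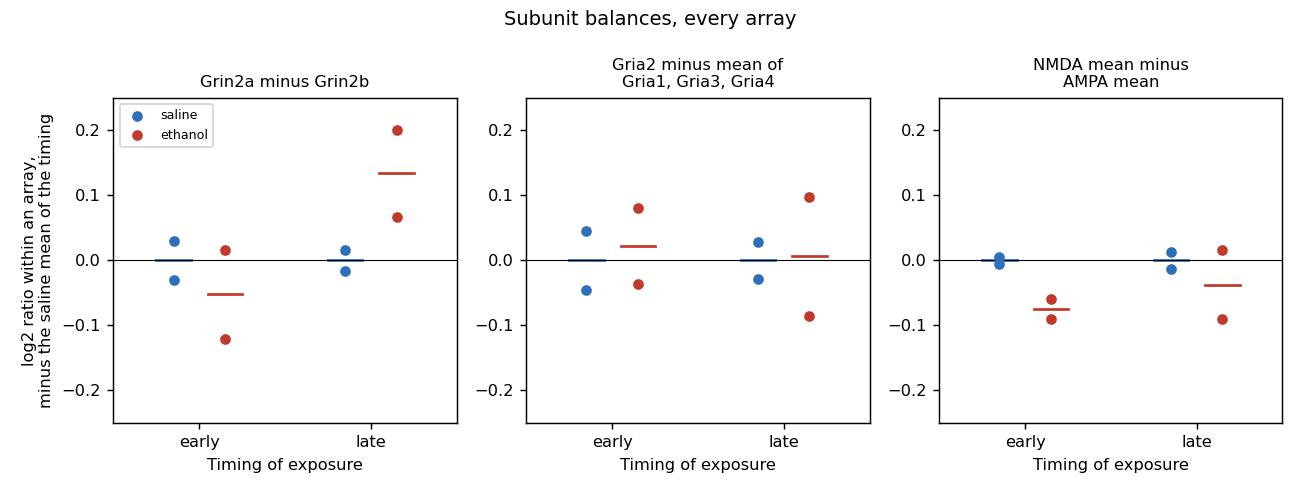
Log2 ratios within an array (vertical axis, minus the saline mean of the same timing) of Grin2a to Grin2b (left), of Gria2 to the mean of the other AMPA receptor genes (middle) and of the NMDA to the AMPA receptor genes (right), for early and late exposure (horizontal axis), in which each point is an array, red for ethanol and blue for saline, and bars are means of 2. Both ethanol arrays lie above saline for Grin2a to Grin2b after late exposure and below it for NMDA to AMPA after early exposure (an order lost with quantile normalization or cyclic loess), and the groups overlap elsewhere.

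Genes whose products act on the same receptors were described in 6 lists, of which 81 of 86 genes were measured and 77 lay above background at each timing. By the study's thresholds 0 of the 81 genes were higher and 1 was lower (1.23%) after early exposure, against 0.278% and 0.645% of all probe sets and 0.923% in either direction. After late exposure 0 were higher and 1 was lower (1.23%), against 0.44% and 0.722% and 1.16% in either direction. The gene was Homer2 early and Grm4 late. The median difference of the 81 genes was -0.02 early and -0.03 late. Its sign was not stable, since the early median was 0.028 without early ethanol replicate 2 and 0.033 without early saline replicate 1, and the late median was 0.013 with quantile normalization, 0.018 with cyclic loess and 0.012 without late saline replicate 1.

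Of 7 measured kainate, delta and remaining NMDA receptor subunits, 0 passed at either timing (medians 0.01 and -0.01). The smallest unadjusted p belonged to Grin3b, a GluN3 subunit at background (-0.09 early and 0.07 late), and to the kainate receptor gene Grik3 (-0.10 at both timings). Of 18 auxiliary subunits and assembly factors, which shape AMPA and kainate receptor gating and transport, 0 passed (medians -0.03 and -0.05). Cacng5, a transmembrane regulator of AMPA receptors, was at 8.77 and 8.55 in early ethanol and at 8.92 and 8.92 in early saline, a difference of -0.26 (SE 0.10), just short of 1.2-fold. It passed the study's thresholds with median centring. Cnih3, a cornichon of AMPA receptors, differed by -0.19 early, and after late exposure Shisa6 differed by -0.23 and Cacng4 by -0.11, with unadjusted p of 0.19 or more.

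Of 21 measured scaffold and trafficking genes, 14 were lower than saline early and 17 late (medians -0.04 and -0.04). Of all 23410 probe sets, 13988 were lower early and 12330 late. In the early arrays 1 of the 21 genes passed. Homer2, a scaffold that joins metabotropic receptors to intracellular calcium stores, was at 9.52 and 9.77 in early ethanol and at 9.97 and 9.91 in early saline. The difference was -0.30 (SE 0.10, limma unadjusted p = 0.0192, adjusted p = 1), and it was -0.17 without early ethanol replicate 1 and -0.26 without early saline replicate 1, where it no longer passed. Shank1, a large scaffold of the postsynaptic density, differed by 0.15 early. In the late arrays Homer1, the related scaffold, differed by -0.27 (SE 0.12) and Lin7a, a PDZ adaptor, by -0.19 (SE 0.08), and neither passed both thresholds.

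Of 15 measured kinases, phosphatases and anchoring proteins, 0 passed (medians -0.01 and -0.02). The smallest p belonged early to Prkca, a protein kinase C (-0.21), and Prkar2b, a regulatory subunit of protein kinase A (-0.26), and late to Fyn, a kinase that phosphorylates GluN2B (-0.17), and Akap5, an anchor of kinases at AMPA receptors (0.17). Of 13 measured genes of glutamate and co-agonist supply and uptake, 0 passed (medians -0.02 and -0.05). Here the smallest p belonged early to the glycine transporter gene Slc6a9 (0.14) and the Purkinje cell glutamate transporter gene Slc1a6 (-0.13), and late to Srr, which makes the co-agonist D-serine (-0.11), and the neuronal glutamate transporter gene Slc1a1 (-0.12).

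Of 7 measured metabotropic glutamate receptor genes, 0 passed early and 1 late (medians -0.03 and 0.02). Grm4, a presynaptic receptor abundant in cerebellar granule cells, was at 9.48 and 9.88 in late ethanol and at 10.13 and 10.00 in late saline, a difference of -0.39 (SE 0.13, limma unadjusted p = 0.0164, adjusted p = 1). As for Grin2c, late ethanol replicate 1 was the lowest array. The difference of Grm4 was -0.19 without it and -0.32 without late saline replicate 1, and passed in neither case. Grm7, another presynaptic receptor, differed by 0.06 early and 0.09 late, and Grm6, at background, by -0.10 early.

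**Figure D4:**
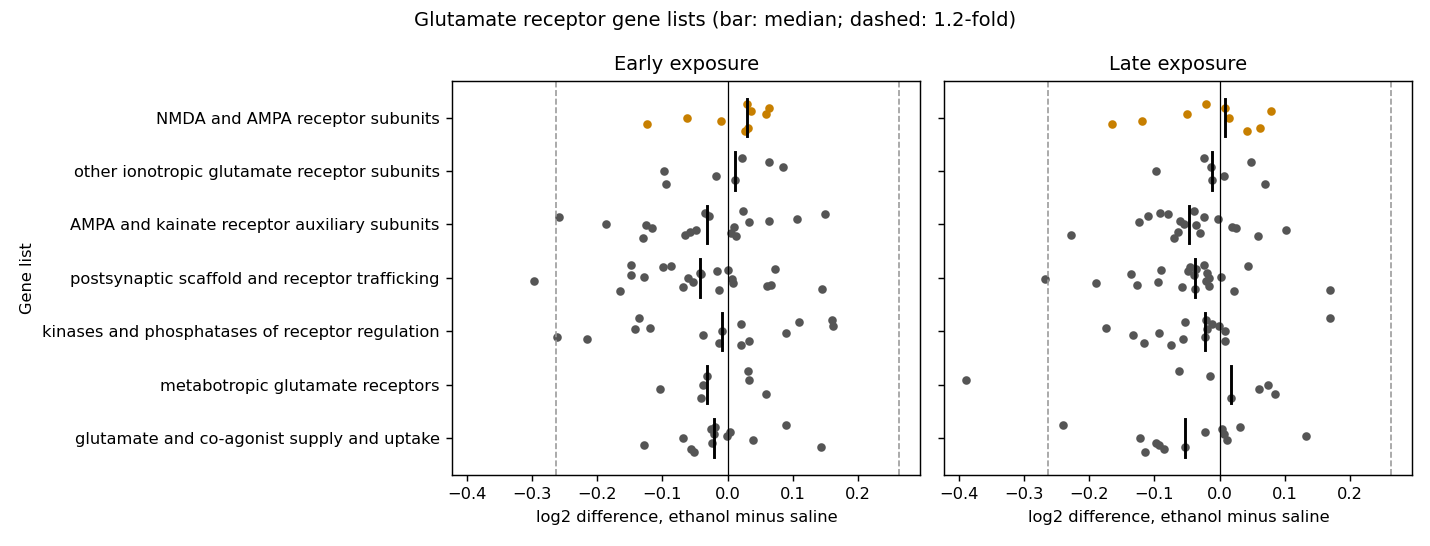
Log2 difference of ethanol minus saline (horizontal axis) of each measured gene (points) in the NMDA and AMPA receptor subunit list (orange) and the 6 related lists (grey), listed on the vertical axis, after early (left) and late (right) exposure, with the median as a black bar and 1.2-fold as dashed lines. The subunit genes lie between -0.12 and 0.06 early and between -0.17 and 0.08 late, and single genes, Homer2 early and Grm4 and Homer1 late, lie beyond 1.2-fold.

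Markers of cerebellar granule and Purkinje cells lay lower beside Grin2c in the late ethanol arrays. All 12 were measured and above background at both timings. The late difference was negative for 12 of 12, against 12330 of all 23410 probe sets. Its median was -0.23, with 7 of 12 having both ethanol arrays below both saline arrays, against 15.7% of all probe sets. Cbln1, a synaptic organizer of granule cells, differed by -0.38 and Zic2, a granule cell transcription factor, by -0.38. These 2 of 12 passed the study's thresholds with the limma p, against 0.722% of all probe sets. Cbln1 fell short of them with quantile normalization (-0.32) or cyclic loess (-0.32), without late ethanol replicate 1 (-0.16) and without late saline replicate 1 (-0.27). Zic2 fell short without late ethanol replicate 1 (-0.25) and without late saline replicate 1 (-0.42) or 2 (-0.34).

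The mean log2 level of the 12 markers was 10.66 and 10.96 in late ethanol and 11.09 and 11.00 in late saline, so that late ethanol replicate 1 was again the lowest array. It also had the highest background (7.70) and the highest median of all probe sets (7.30) of the late arrays. The part of these in the marker values was not tested. Without late ethanol replicate 1 the median of the markers was -0.07, 11 of 12 were lower, and Grin2c differed by -0.07. Without late ethanol replicate 2 the median was -0.38, and without late saline replicate 1 or 2 it was -0.17 or -0.28. The part of the marker genes in the difference of Grin2c was not tested.

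In the early arrays, where Grin2c was also lower in ethanol, the same 12 markers had a median difference of 0.03. Of these, 8 of 12 were higher, 2 had both ethanol arrays above both saline arrays and 0 had both below. Zic2, lower late, differed by 0.32 early. Of all 23410 probe sets, 9417 were higher, 7.5% had both ethanol arrays above both saline arrays, and 18.9% had both below. The mean level of the 12 markers was 10.71 and 10.52 in early ethanol and 10.63 and 10.51 in early saline. The sign of this median turned without early ethanol replicate 1 (-0.053) or early saline replicate 2 (-0.033), and it was 0.12 without early ethanol replicate 2 and 0.10 without early saline replicate 1.

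**Figure D5:**
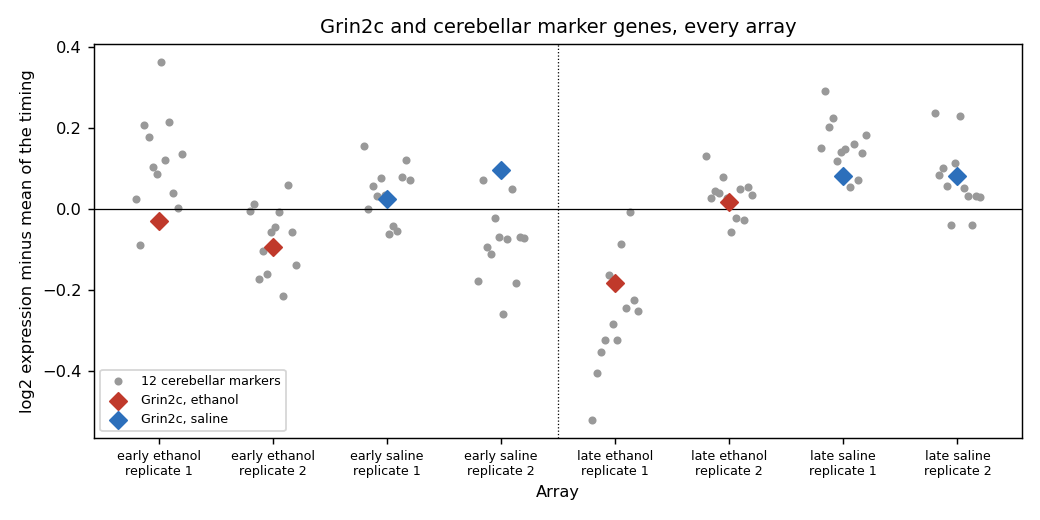
Log2 expression minus the mean of the timing (vertical axis) of Grin2c (diamonds, ethanol in red and saline in blue) and of 12 cerebellar marker genes (grey points) in each of the 8 arrays (horizontal axis). In late ethanol replicate 1 Grin2c lies at -0.18 and the 12 markers all lie below 0, and in late saline replicate 1 the 12 markers all lie above 0. The early arrays have markers on both sides of 0. Most are above it in early ethanol replicate 1, and most are below it in early ethanol replicate 2 and early saline replicate 2.

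Other cell populations were described in the same way, as medians of ethanol minus saline early and late. Astrocyte markers, of interest because astrocytes also express Grin2c, were at -0.01 and -0.07, forebrain excitatory neuron markers at -0.03 and -0.01, hippocampal neuron markers at -0.02 and -0.04 and general neuron markers at 0.07 and -0.05. GABAergic neuron markers were at -0.10 and -0.05, oligodendrocyte markers at 0.14 and -0.12, oligodendrocyte precursor markers at -0.00069 and -0.05, microglia markers at 0.01 and -0.00083 and endothelial markers at -0.11 and -0.16. In early ethanol 2 of 12 GABAergic markers passed the study's thresholds downwards, as did 1 of 9 forebrain excitatory and 1 of 8 hippocampal markers, against 0.645% of all probe sets. In late ethanol both arrays were below both saline arrays for 6 of 7 oligodendrocyte, 6 of 12 neuron, 4 of 6 endothelial and 4 of 12 GABAergic markers. Forebrain excitatory markers had 2 of 9, hippocampal, astrocyte and microglia markers 1 of 8 each, and precursor markers 1 of 6, against 15.7% of all probe sets. In early ethanol this order held for 5 of 12 GABAergic, 2 of 6 endothelial, 2 of 8 hippocampal and 2 of 6 precursor markers. It held for 1 of 9 forebrain excitatory, 1 of 8 microglia and 0 of the neuron, astrocyte and oligodendrocyte markers, against 18.9% of all probe sets. Markers of the olfactory bulb and nasal tissue were at -0.15 and -0.17, with 4 of 12 past the study's thresholds upwards and 4 downwards early, against 0.278% and 0.645% of all probe sets, and 2 downwards late, against 0.722%. Both ethanol arrays were below both saline arrays for 7 of these 12 early and 4 late, and above them for 4 early and 0 late. The mean level of this list was 7.93 and 7.36 in early ethanol against 7.23 and 7.31 in early saline, highest in early ethanol replicate 1, and 3 of its 12 genes (Cnga2, Obp2a and Obp1a) were at background early. Without that array the early difference of Grin2c was -0.16. In the late arrays the mean level was 7.03 and 7.12 in ethanol against 7.15 and 7.33 in saline, and 7 of the 12 were at background. The part of these populations in the values of the subunit genes was not tested.

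Grin2c had the smallest p of the 9 genes at both timings, and the genes whose values followed it best were sought among 9908 others above background. After the mean of each timing was subtracted, the closest over the 8 arrays were Iws1, a factor of transcript elongation (Pearson r = 0.97, Spearman rho = 0.95), Stx7, an endosomal syntaxin (0.97 and 0.83), and Bbx, a DNA-binding HMG-box protein (0.96 and 0.88). Without the 2 arrays in which Grin2c lay farthest from its median, r was 0.91, 0.84 and 0.85. These 3 genes were picked as the highest of many, so no p is given.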

How the data were processed

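The authors scanned Mouse Gene 1.0 ST arrays with Affymetrix Command Console, summarized probes (RMA, adjusted for GC content, with quantile normalization) in Partek Genomics Suite (Partek 6.6 in the submitters' processing notes) and deposited log2 values. The late arrays are taken to have been treated alike. Array medians differed between the timings, and whether the timings were normalized apart was not tested. No coordinates are printed, since the sources used here do not name a genome build. Of 35556 probe sets, 21789 had 1 gene symbol, 1621 several and 12146 (34.2%) none.

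Differences of ethanol minus saline were estimated by limma 3.58.1 under R 4.3.3, with 4 group means over all 8 arrays and moderated variances. Benjamini-Hochberg adjustment covered the 23410 probe sets with a symbol, and p-values measure the spread between arrays. Intervals are at 95%. The analysis was tested on simulated data with independent normal noise drawn from the fitted variances, a setting that these arrays need not share. The 10 genes and the gene lists were chosen with earlier results of these data known. From each list of receptor function, the 2 genes with the smallest p per timing were named. For other genes the naming followed their values. Alternatives covered variance, samples fitted, replicate block, scaling, filters, probe sets and leaving out each array. Figures were drawn with matplotlib 3.10.9 (Python 3.11.15). The number of arrays limits the precision.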

Additional observations from a re-analysis of the deposited data

How the results depend on the processing

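No subunit gene reached an adjusted p under 0.05 under any alternative that was run, at either timing or between timings. The late difference of Grin2c was largest in size without late ethanol replicate 2 (-0.27). Each gene had 1 probe set, so averaging probe sets changed nothing. Grin2d was absent without the lowest 50% of probe sets. With 1 array left out, the lone array of a group is assumed to vary like the others. Quantile normalization and cyclic loess turned the sign, in that order, of the early difference of Gria1 (-0.021 and -0.018), Gria2 (-0.024 and -0.025) and Gria3 (-0.036 and -0.021), of the late difference of Gria1 (0.049 and 0.037) and Gria4 (0.0037 and 0.0060), and of the early minus late difference of Gria1 (-0.070 and -0.055), Gria2 (-0.045 and -0.093) and Grin2d (0.0047 and 0.022). Both turned the early ratio of Gria2 to the other AMPA genes (-0.014 and -0.023), and quantile normalization the late one (-0.044). Median centring turned the late difference of Gria2 (-0.013) and Grin2a (-0.0070). Both shrank the early ratio of NMDA to AMPA genes (-0.018 and -0.012) and the late difference of Grin2b (-0.053 and -0.062). The cause was not tested.

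Leaving out 1 array turned the sign of further small differences. For early exposure the ranges were -0.15 to 0.025 for Grin2a, -0.029 to 0.0080 for Grin2b, -0.059 to 0.11 for Grin3a and -0.012 to 0.14 for Gria2. For late exposure they were -0.013 to 0.042 for Grin2a, -0.017 to 0.14 for Grin2d, -0.0012 to 0.085 for Grin3a, -0.10 to 0.064 for Gria1, -0.074 to 0.092 for Gria2 and -0.14 to 0.037 for Gria4. Between timings they were -0.16 to 0.010 for Grin2a, -0.057 to 0.14 for Grin2c, -0.11 to 0.048 for Grin2d, -0.10 to 0.070 for Grin3a, -0.034 to 0.13 for Gria1, -0.028 to 0.14 for Gria2 and -0.091 to 0.0064 for Gria3. The ratio of Grin2a to Grin2b ranged from -0.12 to 0.017 early, that of Gria2 to the other AMPA genes from -0.036 to 0.080 early and -0.085 to 0.098 late, and that of NMDA to AMPA genes from -0.091 to 0.016 late. The late ratio of Grin2a to Grin2b stayed positive, from 0.067 to 0.20, the late difference of Grin2b negative, from -0.18 to -0.060, and Grin2c negative at both timings, from -0.16 to -0.087 early and -0.27 to -0.065 late.

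At the study's thresholds limma found 216 probe sets early and 272 late. These counts were 60 and 58 by analysis of variance, 669 and 674 with every probe set, 210 to 781 and 242 to 1750 with 1 array left out, and 169 late without the lowest 50% of probe sets. With quantile normalization 18.2% of the early ones were higher, against 30.1% in the deposited values. Calls at an adjusted p under 0.05 were 0 to 13 early, 0 late and 0 to 5 between timings with 1 array left out, and the 13 and the 5 arose without early ethanol replicate 2. Of the 81 genes of receptor function, 0 to 3 were lower and 0 to 2 higher early, and 0 to 2 each way late, with 1 array left out, which was added after the data were seen. The arrays of a timing share only replicate numbers. Deviations of same-numbered arrays correlated at 0.47 early and -0.46 late. A replicate block gave 229 and 354, and with the late numbers crossed, added after the data were seen, 564 and 519.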
